A study of Mus musculus with 12 samples.

Results

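Kruppel-like factors are transcription factors that bind CACCC boxes and GC-rich sites in DNA through zinc fingers at their C-terminal end. The genes described here are the 10 of the 24421 genes in a table of CD8 T cells whose symbol is Klf2, Klf3, Klf4, Klf6, Klf7, Klf9, Klf10, Klf11, Klf12 or Klf13. They were chosen by name and not by their values in the table. The study asked what the loss of linker histone H1, a protein that binds the nucleosome and helps to compact chromatin, does to gene expression in lymphocytes. CD8 T cells, CD4 T cells and B cells were taken from the spleens of C57BL/6 mice by flow cytometry at 500000 cells a sample, and their polyadenylated RNA was sequenced. The labels give 12 samples in 6 groups, WT and cTKO animals for each of the 3 cell types. Values were analysed here for the CD8 T cells alone, with 2 WT animals (1 female and 1 male) and 2 cTKO animals (1 female and 1 male). The sources used here do not give the H1 alleles behind the name cTKO, the driver of their deletion or the age of the animals.

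The Kruppel-like family falls into classes by the cofactors its members recruit. Klf3, Klf8 and Klf12 bind the corepressor CtBP and act mainly as repressors. Klf9, Klf10, Klf11, Klf13, Klf14 and Klf16 can bind the corepressor Sin3a and repress or activate depending on the gene. Klf1, Klf2, Klf4, Klf5, Klf6 and Klf7 act mainly as activators, often through histone acetyltransferases such as p300. In T cells Klf2 is best known for holding naive cells in quiescence and for driving S1pr1, which allows recirculation through blood and lymph nodes. Klf4 restrains the division of CD8 T cells, Klf10 is induced by TGF-beta, and Klf13 was found as a regulator of the chemokine gene Ccl5 in activated T cells.

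The deposited table is the authors' own comparison and lists no sample columns, so the whole reads of each library were worked back from its means and fold changes. This succeeded for 17966 of the 18153 genes with a read, and for all 10 Kruppel-like factors. It gave 2 WT and 2 cTKO libraries, named here the larger and the smaller of each genotype, and a pair of values gives the larger library first. Recovered reads came to 15783089 and 10649291 in the WT libraries and to 14094797 and 9740520 in the cTKO libraries, over the recovered genes only. Xist, which is transcribed from the inactive X chromosome of females, had 479 and 2 reads in the larger and the smaller WT library and 4871 and 28 in the larger and the smaller cTKO library, so library size and the sex of the animal cannot be told apart. The larger cTKO library stood apart from the others in low-level transcripts: 1165 genes had a single read in it and none elsewhere, against 97 to 156 genes for each of the other libraries. The H1 genes gave the direction of the comparison. Hist1h1c was at 33.8 and 64.7 normalized reads in WT libraries, against 0 and 0 in cTKO. Hist1h1e was at 52.7 and 129 for WT and 0 and 0 for cTKO, and Hist1h1d at 4.12 and 12.7 against 0 and 0. In the authors' deposited table the fold changes of all 3 were negative (DESeq2 adjusted p = 6.03e-05, 1.36e-06 and 0.128), and the sign of every fold change was therefore read as cTKO over WT. The file does not state this direction, and the opposite reading would turn every direction given here.

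The marker genes of the sorted population and of other cells that could share the sort were also read. None of 8 T cell and CD8 identity genes was called by DESeq2, 1 had an unadjusted p under 0.05, and limma called none of the 2 it could fit. Of 9 tested natural killer cell genes 6 rose and 1 fell. The summed normalized reads of the 8 with recovered reads were 1608 and 1791 in WT and 10509 and 9572 in cTKO libraries. The sum leaves out Nkg7, whose reads could not be worked back at a mean of 34767. In the authors' deposited table Nkg7 was at 0.16 on the log2 scale (SE 0.32, DESeq2 adjusted p = 0.792). Many natural killer genes are also used by activated and memory CD8 T cells, and Ncr1, which marks natural killer cells more strictly, was at 1.65 and 4.62 in WT libraries, against 18.2 and 1.24 in cTKO. Of 9 tested B cell genes 4 fell and none rose, with sums at 2345 and 2229 for WT and 1246 and 432 for cTKO. Of 7 tested myeloid genes 2 rose, Itgam and Itgax, with sums at 158 and 129 in the WT libraries and 2639 and 913 in the cTKO libraries. Most of the cTKO sums was Itgax, at 46.1 and 50.8 for WT and 2012 and 632 for cTKO. The other 5 tested myeloid genes, Lyz2 and Csf1r among them, were not called by DESeq2, though 4 of the 7 had an unadjusted p under 0.05. Of 5 tested CD4 and regulatory T cell genes 2 rose, Zbtb7b and Gata3, and limma on all libraries called 1 of them. Sums were 1274 and 1238 in WT libraries, against 2201 and 2114 in cTKO. Most of this was Gata3, with mean normalized reads of 1075 in WT and 1922 in cTKO. Foxp3 at -0.86, Il2ra at 0.31 and Ctla4 at 0.01 on the log2 scale were not called by DESeq2. Cd4 itself had 1 and 4 reads in WT libraries and 1 and 0 in cTKO. Genes that respond to cell dissociation fell in 8 of 14 cases and rose in 2 (by limma, 7 fell with all libraries and 4 without the larger cTKO library), with sums at 23641 and 29276 for WT and 12364 and 15690 for cTKO. Cell cycle genes rose in 6 of 12 cases (by limma, 4 with all libraries and 2 without the larger cTKO library), with sums at 8266 and 6030 in the WT libraries and 14892 and 8541 in the cTKO libraries. None of the 3 tested erythroid and platelet genes was called, either by DESeq2 at an unadjusted p under 0.05 or by limma. No marker listed for natural killer, B or myeloid cells was at 0 in all libraries. The part of these other cells and states in the values of the Kruppel-like factors was not tested, and in bulk RNA fewer cells of a type and less RNA per cell cannot be told apart.

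Of the 10 Kruppel-like factors, Klf12 and Klf10 were higher in cTKO CD8 T cells, Klf13 was lower, and 7 did not pass the test. A gene was called at a DESeq2 adjusted p under 0.05 in the authors' deposited table, which called 9.77% of 12972 tested genes higher and 3.61% lower. At an unadjusted p under 0.05 stood 4 higher genes, Klf9, Klf10, Klf11 and Klf12, and 1 lower, Klf13, beside 16.6% and 9.69% of all tested genes. The genotypes did not overlap at 9 of the 10 genes: both cTKO libraries exceeded both WT libraries for 6 genes and were under both for 3, and Klf6 alone overlapped. Separation of this kind was common, since 31.4% of 12785 genes with recovered reads were higher and 28.1% lower without overlap. Other call rules made other shares of genes higher or lower. Without a filter on the mean they were 6.4% and 2.16%, at an adjusted p under 0.01 they were 6.35% and 1.77%, and with re-centred fold changes 11.4% and 2.64%. Limma on all 4 libraries called 8.37% of 11577 genes higher and 2.5% lower, or 8.38% and 2% with libraries scaled to recovered totals and 8.48% and 1.95% by upper quartile. With the sex of the animal as a block it called 12.9% and 4.34%. Without the larger WT library limma called 5.35% and 1%, without the smaller WT library 6.88% and 1.72%, without the larger cTKO library 7.67% and 2.29%, and without the smaller cTKO library 21.8% and 16.4%. Calls made without the smaller cTKO library thus stand against a much larger background. The median log2 fold change of the 10 was 0.60, beside 0.04 over all tested genes and -0.10 over genes whose mean was at least 100 normalized reads.

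**Figure D1:**
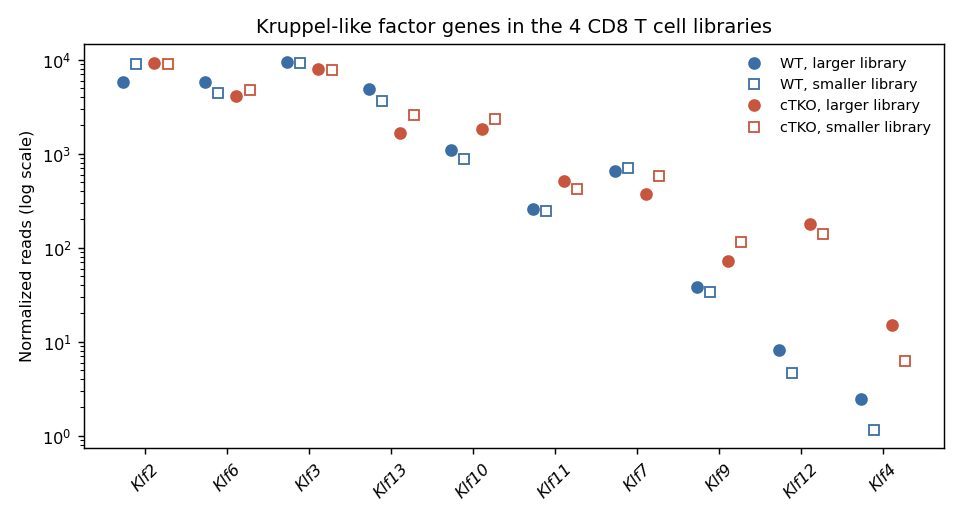
Normalized reads (log axis) of the 10 Kruppel-like factor genes, ordered by level per kilobase of exon, with 1 point for each of the 4 CD8 T cell libraries (filled circles, larger library of a genotype; open squares, smaller library). Klf12 lies at 8.23 and 4.62 in WT libraries, against 178 and 139 in cTKO, while the WT and cTKO points of Klf6 overlap.

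The genes spanned a wide range of levels. Levels of different genes were set side by side as normalized reads per kilobase of exon. On that scale Klf2 led with a mean of 4430 over the 4 libraries (range 3100 to 4950), followed by Klf6 at 1090 (945 to 1310) and Klf3 at 764 (698 to 833). The ranges of these leading genes did not overlap. Their order depends on the exon lengths used, 1.85 kb for Klf2, 4.39 kb for Klf6 and 11.2 kb for Klf3. Before division by length Klf3 had the highest mean, 8589 normalized reads, beside 8185 for Klf2 and 4767 for Klf6. Klf13 at 424 (221 to 646) and Klf10 at 368 (209 to 565) overlapped in range, as did Klf11 at 82.8 (57.2 to 118) and Klf7 at 71.1 (45.9 to 86.6). The low end held Klf9 at 13.4 (6.95 to 23.7), Klf12 at 11.8 (0.661 to 25.5) and Klf4 at 2.03 (0.379 to 4.89), each overlapping the next in this order. Within this order Klf13 and Klf10 exchanged places by genotype, while Klf12 and Klf9 did so only in their means. Klf12 averaged 0.92 per kilobase in WT, below Klf9 at 7.41, and 22.7 in cTKO, where it overlapped with Klf9 at 19.4. In the cTKO libraries Klf12 stood at 25.5 and 19.9 per kilobase and Klf9 at 15.1 and 23.7, so the smaller library kept Klf9 above Klf12. Klf13 stood at 646 and 485 per kilobase in WT and at 221 and 345 in cTKO. Klf10 stood at 261 and 209 per kilobase in WT and at 438 and 565 in cTKO. Both WT libraries thus had more Klf13 than Klf10 per kilobase and both cTKO libraries had less, a difference in order that was not tested.

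The summed output of the 10 genes was nearly level. It was 27729 and 27971 normalized reads for WT and 25948 and 27811 for cTKO, and the genotypes overlapped. Klf2, Klf3 and Klf6 made up 75.1% and 80.3% of the sum in WT and 82.1% and 77.6% in cTKO. The share of Klf13 was 17.6% and 13.1% in the WT libraries and 6.4% and 9.3% in the cTKO libraries, and that of Klf10 was 3.9% and 3.1% in WT libraries, against 7.1% and 8.5% in cTKO. These shares describe composition and carry no test of their own.

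**Figure D2:**
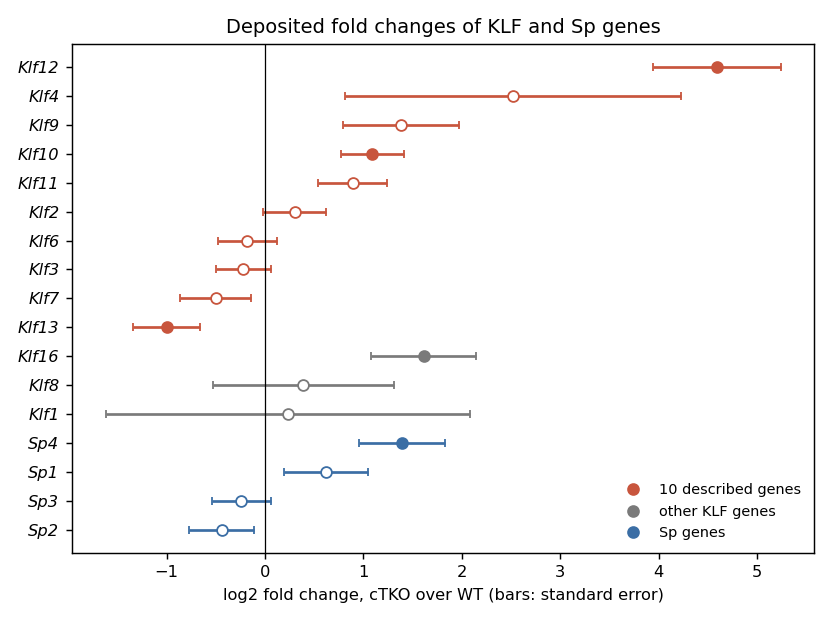
Log2 fold change, cTKO over WT, of the 10 Kruppel-like factor genes, the other tested Kruppel-like factors and the tested Sp genes. Values are from the authors' deposited table, with bars of the standard error on each side. The 95% intervals in the text are 1.96 standard errors on each side. Filled points mark the genes with a DESeq2 adjusted p under 0.05. They are Klf10 at 1.09, Klf12 at 4.59 and Klf13 at -1.0, with Klf16 at 1.61 and Sp4 at 1.39 among the relatives.

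Among the CtBP-binding repressors, Klf12 rose and Klf3 was not called. Klf12, described as a repressor of the AP-2 alpha gene, had 10 and 4 reads in the WT libraries and 215 and 112 in the cTKO libraries. In normalized reads this was 8.23 and 4.62 for WT and 178 and 139 for cTKO. The lowest cTKO library was far above the highest WT library. The larger library was 1.78 times the smaller in WT and 1.28 times in cTKO. In the authors' deposited table Klf12 rose by 4.59 on the log2 scale (SE 0.65, 95% interval 3.31 to 5.87), a fold change of 24.1 with DESeq2 adjusted p = 2.3e-10. In a limma fit to the recovered reads the difference was 4.55 with adjusted p = 0.000447. Leaving out each library in turn gave 4.20 to 4.93 by limma with adjusted p from 2.4e-05 to 0.000282, so all 4 of these fits called Klf12. The WT level rests on few reads.

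The Klf12 gene (Entrez 16597) spans 420 kb at chr14:99866181-100285891 on GRCm38.p6, on the reverse strand, per RefSeq. Its RefSeq promoter entry lies within that span, before an internal start. The window is shown because Klf12 had the greatest fold change of the 10 among genes that passed the test. It covers the 250 bases before this start, chr14:100149797-100150046 on the reverse strand, with the CACCC box in capitals.
Klf12: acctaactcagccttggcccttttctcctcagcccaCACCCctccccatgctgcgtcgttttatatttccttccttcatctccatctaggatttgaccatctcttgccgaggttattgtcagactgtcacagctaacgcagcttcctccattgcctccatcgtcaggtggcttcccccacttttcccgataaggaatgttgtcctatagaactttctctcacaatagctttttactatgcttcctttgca
The window with 50 bases after the start held 6 CpG dinucleotides, close to the median of 7 over all 32851 RefSeq windows of 300 bases, and 45.7% G and C. It held no GC box (GGGCGG on either strand), and it was the only one of the 9 family windows with TATAAA on either strand, a motif found in 13.6% of all windows. An antisense gene and a processed pseudogene on the opposite strand overlap Klf12 in the GENCODE annotation and are not among the rows of the table, and the sources used here do not give the strand handling of the counts.

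Klf3, a repressor known in B cell and red cell development, had 11369 and 7918 reads in the WT libraries and 9672 and 6313 in the cTKO libraries. In normalized reads these were 9362 and 9143 in WT libraries, against 8011 and 7843 in cTKO. Both cTKO libraries lay just below both WT libraries. On the log2 scale the difference was -0.22 (SE 0.28, 95% interval -0.78 to 0.33, DESeq2 adjusted p = 0.663) per the authors' deposited table, so a change of this size did not pass the test. Klf3 lies at chr5:64803521-64832901 (Entrez 16599). Klf8, the other repressor of this class, was at 21.4 and 20.8 normalized reads for WT and 42.2 and 12.4 for cTKO, and the genotypes overlapped (log2 fold change 0.39, SE 0.92, DESeq2 adjusted p = 0.829, per the authors' deposited table).

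The Sin3a-binding class held the other called genes, and they went in opposite directions: Klf10 rose and Klf13 fell. Klf13 had 5911 and 3165 reads in the larger and the smaller WT library and 2005 and 2089 in the cTKO libraries. Normalized, the levels were 4867 and 3655 in the WT libraries and 1661 and 2595 in the cTKO libraries. Each cTKO library was under each WT library, and the spread within each genotype was wide, with the larger cTKO library at 0.64 of the smaller one. The fitted log2 difference was -1.0 (SE 0.34, 95% interval -1.66 to -0.34), a 2.0-fold lower level with DESeq2 adjusted p = 0.0267, per the authors' deposited table. The call was lost in several other settings while the direction held in each of them. By limma on all 4 libraries the difference was -1.03 with adjusted p = 0.0569, and with the sex of the animal as a block the adjusted p was 0.0261. Without the larger cTKO library it was -0.69 (adjusted p = 0.163), without the larger WT library -0.83 (0.536), and without the smaller WT library -1.24 (0.101), while without the smaller cTKO library it was -1.34 with limma adjusted p = 0.00257. Re-centring all fold changes on the median of genes whose mean was at least 100 gave -0.90 with adjusted p = 0.0515.

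Klf13 (Entrez 50794) lies at chr7:63886351-63938915 on the reverse strand. Its promoter is shown as the contrast to that of Klf12, since the one gene fell and the other rose. The 250 bases before the start are chr7:63938916-63939165 on the reverse strand, with the GC boxes and the CACCC box in capitals, the second GC box and the CACCC box overlapping.
Klf13: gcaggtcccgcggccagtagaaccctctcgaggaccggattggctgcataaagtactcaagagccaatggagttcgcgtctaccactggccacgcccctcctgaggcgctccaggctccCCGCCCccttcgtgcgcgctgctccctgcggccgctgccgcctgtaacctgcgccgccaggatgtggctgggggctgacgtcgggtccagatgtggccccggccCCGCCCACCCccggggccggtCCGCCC
The 300-base window held 32 CpG dinucleotides, more than 90.5% of all RefSeq windows, and 3 GC boxes. A protein-coding gene on the opposite strand, E030018B13Rik, overlaps Klf13 and had a mean of 1.45 normalized reads, against 3194 for Klf13.

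Klf10, first described as a gene induced early by TGF-beta and a brake on T cell activation, had 1325 and 756 reads in WT libraries, against 2209 and 1899 in cTKO. Normalized, it was at 1091 and 873 for WT and 1830 and 2359 for cTKO. The lowest cTKO library was above the highest WT library by more than the distance between the WT libraries. The log2 fold change was 1.09 (SE 0.32, 95% interval 0.47 to 1.72), a 2.13-fold higher level with DESeq2 adjusted p = 0.00783, per the authors' deposited table. Limma on all 4 libraries gave 1.08 with adjusted p = 0.0377. The call held in both limma fits that left out a cTKO library and in neither that left out a WT library: without the larger WT library the difference was 1.24 with adjusted p = 0.226, and without the smaller 0.92 with adjusted p = 0.367. Klf10 (Entrez 21847) lies at chr15:38291464-38300711.

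Klf11, the closest relative of Klf10 and also inducible by TGF-beta, had 311 and 215 reads in the WT libraries and 616 and 341 in the cTKO libraries. In normalized reads it was at 256 and 248 in WT libraries, against 510 and 424 in cTKO. The WT libraries were nearly equal and both cTKO libraries lay well above them. The log2 fold change of 0.89 (SE 0.35, 95% interval 0.19 to 1.58) per the authors' deposited table had an unadjusted p of 0.0121 and a DESeq2 adjusted p of 0.0754, short of the threshold. Re-centring the fold changes moved it to 0.99 with adjusted p = 0.0403, and limma without the smaller cTKO library gave 1.01 with adjusted p = 0.0147. Klf11 (Entrez 194655) lies at chr12:24651371-24662782.

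Klf9, a factor induced by glucocorticoid and thyroid hormones in many tissues, was a low-level gene with 46 and 29 reads for WT and 88 and 92 for cTKO. In normalized reads it was at 37.9 and 33.5 in the WT libraries and 72.9 and 114 in the cTKO libraries. No library of one genotype reached the other. On the log2 scale the difference was 1.38 (SE 0.59, 95% interval 0.23 to 2.54) with an unadjusted p of 0.019 and a DESeq2 adjusted p of 0.101 in the authors' deposited table. Limma called it at 1.66 without the larger cTKO library (adjusted p = 0.0393) and at 1.33 with sex as a block (adjusted p = 0.0489). Klf9 (Entrez 16601) lies at chr19:23141226-23168129.

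Klf16, a further Sin3a-binding relative, was called higher. It was at 46.9 and 93.5 normalized reads in WT libraries, against 289 and 135 in cTKO, so the cTKO libraries differed widely. In the authors' deposited table it rose by 1.61 on the log2 scale (SE 0.53, DESeq2 adjusted p = 0.0252). Limma on all 4 libraries gave 1.65 with adjusted p = 0.0571, and without the larger cTKO library 1.07 with adjusted p = 0.209. Klf14 had 2 reads, all in the larger cTKO library.

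The activator class held Klf2, Klf4, Klf6 and Klf7, and none of these 4 was called by DESeq2, at an unadjusted p under 0.05, or by limma on all libraries, which could not fit Klf4. Klf2 had 6946 and 7733 reads for WT and 11047 and 7197 for cTKO. In normalized reads it was at 5720 and 8929 in the WT libraries and 9149 and 8941 in the cTKO libraries. The smaller WT library was level with both cTKO libraries, and the larger WT library alone was low. The fitted log2 difference was 0.30 (SE 0.32, 95% interval -0.32 to 0.93, DESeq2 adjusted p = 0.586), per the authors' deposited table. It was 0.66 as a ratio of mean normalized reads without the smaller WT library and 0.02 without the larger one. An interval of this width still holds changes of up to 0.93 on the log2 scale.

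Klf2 (Entrez 16598) lies at chr8:72319062-72321654 on the forward strand. Its promoter is shown because a MEF2 site there is the known route by which the kinase cascade of Map2k5 and Mapk7 drives the gene, and Mef2a and Mef2d are described further on. The 250 bases before the start are chr8:72318812-72319061 on the forward strand, with the GC boxes, the MEF2 match and the CACCC box (read as GGGTG on this strand) in capitals.
Klf2: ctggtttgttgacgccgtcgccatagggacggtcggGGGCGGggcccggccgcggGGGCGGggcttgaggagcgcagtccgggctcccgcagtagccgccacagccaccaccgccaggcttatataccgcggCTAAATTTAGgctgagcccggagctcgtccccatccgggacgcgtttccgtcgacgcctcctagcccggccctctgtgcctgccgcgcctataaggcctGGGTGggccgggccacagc
The MEF2 match begins 118 bases before the start. Klf2 was the only one of the 9 family windows with such a match, which 3.19% of all RefSeq windows held on either strand.

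Klf4 was barely detected, with 3 and 1 reads in WT libraries, against 18 and 5 in cTKO. Normalized, it was at 2.47 and 1.15 for WT and 14.9 and 6.21 for cTKO. Both cTKO libraries were above both WT libraries, and the reads were too few to tell the size of a difference. The log2 fold change was 2.52 (SE 1.71, 95% interval -0.83 to 5.88, DESeq2 adjusted p = 0.355) per the authors' deposited table. Klf4 (Entrez 16600) lies at chr4:55527137-55532475.

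Klf6, an activator induced by many growth signals, had 6965 and 3793 reads in the WT libraries and 5009 and 3869 in the cTKO libraries. In normalized reads it was at 5735 and 4380 in WT libraries, against 4149 and 4806 in cTKO. The genotypes overlapped, as the smaller cTKO library lay between the WT libraries. On the log2 scale the difference was -0.18 (SE 0.30, 95% interval -0.77 to 0.42, DESeq2 adjusted p = 0.76) per the authors' deposited table. Its sign turned to 0.02 by limma without the larger WT library. Klf6 (Entrez 23849) lies at chr13:5861489-5870393.

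Klf7, studied mostly in neurons and fat cells, had 789 and 610 reads for WT and 451 and 470 for cTKO. In normalized reads it was at 650 and 704 in the WT libraries and 374 and 584 in the cTKO libraries. Both cTKO libraries were below both WT libraries, the larger one much further. The fitted log2 difference was -0.50 (SE 0.36, 95% interval -1.20 to 0.20, DESeq2 adjusted p = 0.379), per the authors' deposited table. It reached -0.85 by limma without the smaller cTKO library (adjusted p = 0.0287) and -0.21 without the larger one. Klf7 (Entrez 93691) lies at chr1:64029448-64122345.

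**Figure D3:**
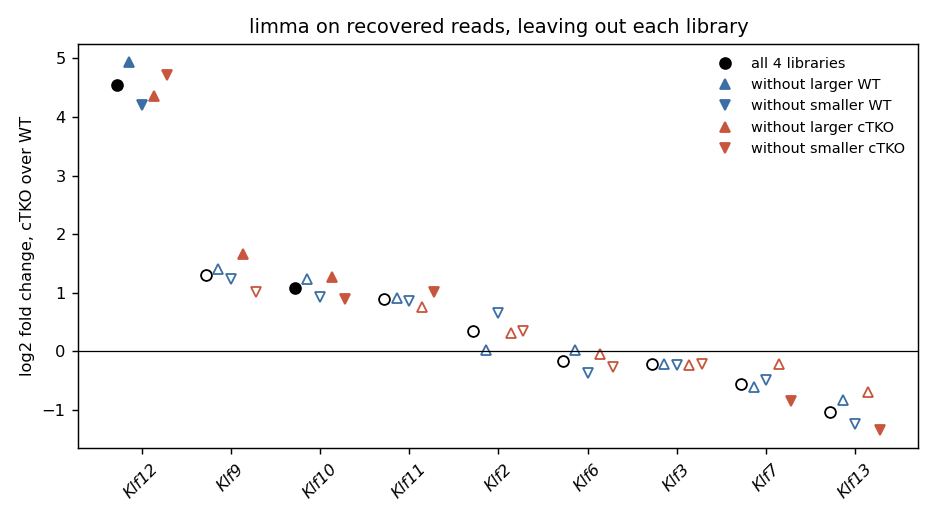
Log2 fold change of the Kruppel-like factor genes by limma on recovered reads, with all 4 libraries and with each library left out in turn. Klf4, which limma could not fit, is not shown. Klf12 stayed between 4.20 and 4.93, and Klf13 ran from -1.34 to -0.69.

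The activators Klf1 and Klf5 were near the detection limit. Klf1, the red cell factor, was at 3.29 and 5.77 normalized reads in WT libraries, against 9.11 and 1.24 in cTKO (log2 fold change 0.23, DESeq2 adjusted p = 0.957, per the authors' deposited table). Klf5 had 0 and 0 reads for WT and 12 and 3 for cTKO and carried no adjusted p. Klf15 had 1 read and Klf17 had 4, all in the larger cTKO library. Of the Sp genes, which share the zinc fingers and the GC box with the Kruppel-like factors, 4 of 9 were tested. Sp4 was at 360 and 283 normalized reads in the WT libraries and 1220 and 461 in the cTKO libraries, and rose by 1.39 (SE 0.44, DESeq2 adjusted p = 0.0177) per the authors' deposited table. Without the larger cTKO library limma gave Sp4 0.52 with adjusted p = 0.362. Sp1 at 0.62 (adjusted p = 0.371), Sp2 at -0.44 (0.41) and Sp3 at -0.24 (0.657) on the log2 scale were not called by DESeq2 in the authors' deposited table.

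Genes tied to the known roles of Klf2 were split. Of 6 trafficking genes 1 rose, 2 fell and 3 were not called, with a median log2 fold change of -0.44. S1pr1, the receptor for exit from lymphoid tissue and a gene that Klf2 is known to drive, was at -0.45 (SE 0.29, DESeq2 adjusted p = 0.327) and Itgb7, an integrin gene for homing to the gut, at -0.42 (SE 0.32, 0.413), both uncalled per the authors' deposited table. Ccr7, the receptor for entry into lymph nodes, fell by 0.95 (SE 0.32, DESeq2 adjusted p = 0.028), per the authors' deposited table. Re-centring ended the call of Ccr7. Cd69, which holds cells back by binding S1pr1, was at 3150 and 2651 normalized reads in WT libraries, against 1459 and 1494 in cTKO. It fell by 0.97 (SE 0.30, DESeq2 adjusted p = 0.0124) per the authors' deposited table. Cd69 is also induced early after stimulation. In the same comparison 8 of 14 dissociation-response genes fell and 2 rose (7 and 2 by limma on all libraries). A link between these genes and Cd69 was not tested. The inflammatory chemokine receptor gene Cxcr3, which appears on T cells in mice that lack Klf2 there, was higher. Cxcr3 was at 3573 and 4192 normalized reads for WT and 6863 and 9368 for cTKO (log2 fold change 1.06, SE 0.31, DESeq2 adjusted p = 0.00722, per the authors' deposited table).

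Of 11 regulators of Klf2 and Klf4, 3 rose and none fell, with a median log2 fold change of 0.33. Wwp1, a ubiquitin ligase that marks Klf2 for degradation, was at 382 and 469 normalized reads in WT libraries, against 2047 and 1793 in cTKO. It rose by 2.18 (SE 0.31, DESeq2 adjusted p = 4.45e-10), per the authors' deposited table and by 2.09 (adjusted p = 0.000242) by limma without the larger cTKO library. Mef2a, a factor that binds MEF2 sites like the one in the Klf2 promoter, was at 964 and 1055 for WT and 3533 and 1924 for cTKO. It rose by 1.43 (SE 0.35, DESeq2 adjusted p = 0.00101) per the authors' deposited table and by 0.93 (adjusted p = 0.0319) by limma without the larger cTKO library. Elf4, an activator of Klf4 in CD8 T cells, was at 829 and 1240 in the WT libraries and 4607 and 1401 in the cTKO libraries, with most of the difference in the larger cTKO library. It rose by 1.54 (SE 0.46, DESeq2 adjusted p = 0.01) per the authors' deposited table, and limma without that library gave 0.47 with adjusted p = 0.374. Foxo1, a main driver of Klf2 in naive T cells, was at -0.09 and Mef2d at 0.24, both uncalled by DESeq2 in the authors' deposited table (adjusted p = 0.896 and 0.696).

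Corepressor and coactivator partners were mostly not called: 1 of 12 rose and none fell, with a median log2 fold change of 0.30. Ep300, the acetyltransferase p300, was at 719 and 734 normalized reads in WT libraries, against 2516 and 981 in cTKO. It rose by 1.27 (SE 0.41, DESeq2 adjusted p = 0.0213), per the authors' deposited table, and without the larger cTKO library limma gave 0.43 with adjusted p = 0.355. Ctbp1, the corepressor of Klf3 and Klf12, was at 6939 and 4498 for WT and 3486 and 3804 for cTKO without a call (-0.65, SE 0.32, DESeq2 adjusted p = 0.172, per the authors' deposited table). The nuclear corepressor gene Ncor1 was at -0.58 (SE 0.30, DESeq2 adjusted p = 0.192) per the authors' deposited table.

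In the TGF-beta pathway, which induces Klf10 and Klf11, 3 of 10 genes rose and 1 fell, with a median log2 fold change of 0.51. The members that rose were a ligand, a receptor and a signal carrier. Smad3 was at 349 and 438 normalized reads in the WT libraries and 3894 and 1244 in the cTKO libraries. It rose by 2.71 (SE 0.45, DESeq2 adjusted p = 9.71e-08) per the authors' deposited table and by 1.68 (adjusted p = 0.00129) by limma without the larger cTKO library. The receptor gene Tgfbr1 was at 352 and 395 in WT libraries, against 1242 and 728 in cTKO, and rose by 1.40 (SE 0.37, DESeq2 adjusted p = 0.00216), per the authors' deposited table. The ligand gene Tgfb1 rose by 1.29 (SE 0.42, DESeq2 adjusted p = 0.0207) per the authors' deposited table, and limma without the larger cTKO library gave 0.79 with adjusted p = 0.194. Smad4, the partner that receptor-activated Smads need for most of their target genes, moved the other way. It was at 4164 and 2472 for WT and 736 and 1246 for cTKO, and fell by 1.74 (SE 0.37, DESeq2 adjusted p = 8.48e-05) per the authors' deposited table. Tgfbr2 at 0.50 (SE 0.39, DESeq2 adjusted p = 0.421) and Smad2 at -0.37 (SE 0.31, 0.477) were not called in the authors' deposited table.

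Of 7 glucocorticoid-response genes, the company of Klf9, none was called higher and 1 was called lower, with a median log2 fold change of -0.45. DESeq2 gave 2 of the 7 an unadjusted p under 0.05, and limma called none of 6 higher. The gene that fell was Dusp1, a phosphatase of mitogen-activated kinases that is also on the dissociation-response list, at 604 and 729 normalized reads in the WT libraries and 142 and 173 in the cTKO libraries (log2 fold change -2.08, SE 0.36, DESeq2 adjusted p = 2.66e-07, per the authors' deposited table). Tsc22d3, the classic glucocorticoid target known as GILZ, was at -0.55 (DESeq2 adjusted p = 0.232) and Sgk1 at 0.45 (0.377) in the authors' deposited table. Sgk1 was at 3485 and 4576 normalized reads in WT libraries, against 4601 and 6426 in cTKO, with no overlap.

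Of 4 genes known as promoter targets of single Kruppel-like factors, 2 rose. Ccl5, the target of Klf13, rose by 3.76 (SE 0.30, DESeq2 adjusted p = 5.48e-34) per the authors' deposited table, in the same cells in which Klf13 was lower. Its reads could not be worked back because its mean of 23496 was above the search limit. Ccl5 is also abundant in memory CD8 T cells and natural killer cells. In the same comparison 6 of 9 natural killer genes rose and 1 fell. Whether the rise of Ccl5 is tied to them or to Klf13 was not tested. Cdkn1a, a cell cycle inhibitor and target of Klf4 and Klf6, was at 13.2 and 3.46 normalized reads in WT libraries, against 82.8 and 85.7 in cTKO. It rose by 3.29 (SE 0.76, DESeq2 adjusted p = 0.000375) per the authors' deposited table. Myc at -0.12 and Lgals3 at 0.90 were not called by DESeq2 in the authors' deposited table (adjusted p = 0.856 and 0.244). These lists overlap in function and were compared with the background only by their counts: 9.77% of all tested genes were called higher and 3.61% lower.

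**Figure D4:**
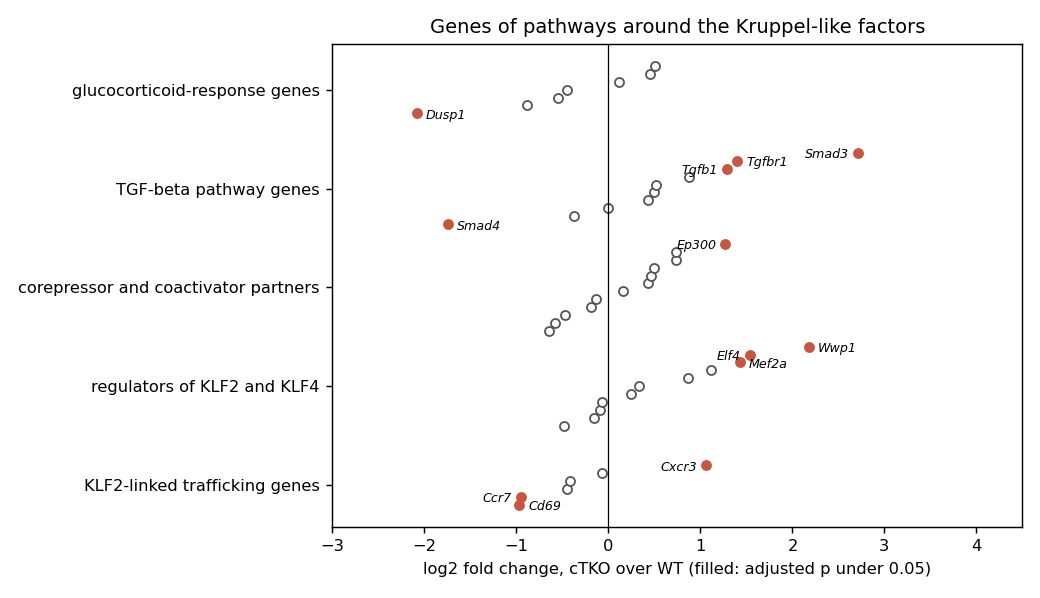
Log2 fold changes, cTKO over WT, of single genes in 5 lists around the Kruppel-like factors, from the authors' deposited table, with genes stacked by value within a list. Filled points are genes with an adjusted p under 0.05 and are named, from Smad3 at 2.71 down to Dusp1 at -2.08.

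The surroundings of the 10 genes were read on RefSeq positions. The nearest tested gene on each side was called for 3 of 20 neighbours, 2 higher and 1 lower. Azin1, 187 kb from Klf10, rose by 1.32 (SE 0.39, DESeq2 adjusted p = 0.00791), per the authors' deposited table. Trpm1, 215 kb from Klf13, had 385 and 327 reads for WT and 34 and 32 for cTKO. It fell by 3.37 (SE 0.44, DESeq2 adjusted p = 4.44e-12) per the authors' deposited table. Cemip2, 1280 kb from Klf9, rose by 3.31 (SE 0.72, DESeq2 adjusted p = 0.00012) per the authors' deposited table.

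Within 1 Mb of the midpoint of a Kruppel-like factor lay 103 other tested genes, of which 9.71% were higher and 1.94% lower, beside 9.77% and 3.61% of all tested genes. The genes higher around Klf10 were Grhl2, Ncald, Rrm2b and Azin1, 4 of 9 with none lower. In the authors' deposited table Ncald was at 3.12 (SE 0.39, DESeq2 adjusted p = 1.89e-13) and Grhl2 at 4.38 (SE 0.95, 0.000104). Around Klf12 lay only 2 tested genes, and neither was called by DESeq2. The nearest tested gene on each side of Klf12, Pibf1 at 611 kb and Tbc1d4 at 1160 kb, were at -0.37 (DESeq2 adjusted p = 0.537) and 0.85 (0.118) in the authors' deposited table. Around Klf13 only Trpm1 was called among 6 tested genes. Around Klf11 the genes Id2 (2.53, SE 0.29, DESeq2 adjusted p = 1.52e-16) and Kidins220 (1.68, SE 0.44, 0.00211) rose, 2 of 5, per the authors' deposited table. The other called genes were Ankle1 (1.78, higher) and Tmem221 (-1.17, lower) of 44 around Klf2, Rell1 (0.91) and 1700027F09Rik (2.11), both higher, of 20 around Klf3, and Plekhm3 (1.44, higher) of 12 around Klf7, per the authors' deposited table.

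**Figure D5:**
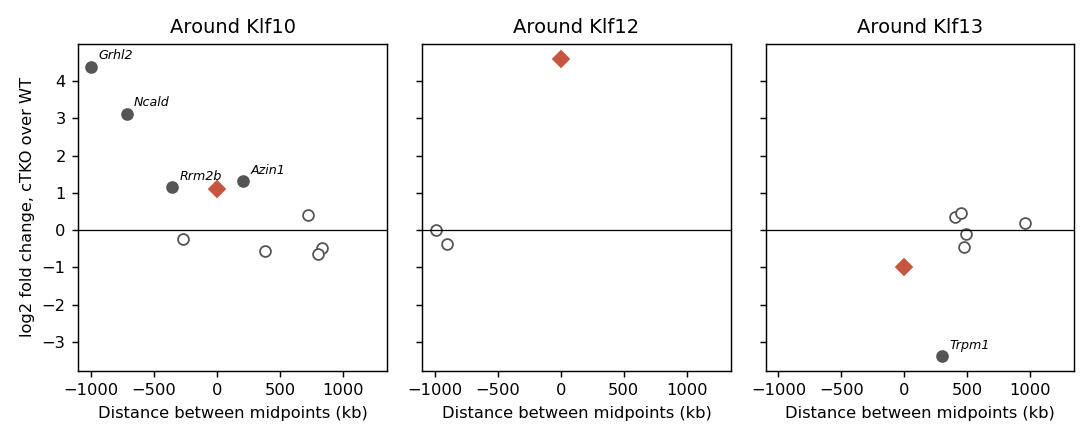
Log2 fold change, cTKO over WT, of tested genes by the distance in kb between their midpoint and that of Klf10, Klf12 or Klf13 (diamond), with called genes filled and named. Klf10 has 4 called genes within 1 Mb, all higher, Klf13 has Trpm1 alone, lower, and Klf12 has none.

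The genes whose pattern over the 4 libraries was most like that of Klf12 were sought among 9084 genes whose mean was at least 100, by the sum of squared differences of centred log2 normalized reads. The closest was Ripk4 at 0.287, with 9 and 4 reads in the WT libraries and 221 and 165 in the cTKO libraries. Next came Nr3c2, the mineralocorticoid receptor gene, at 0.309 with 11 and 7 reads in WT libraries, against 374 and 184 in cTKO. The third was Bmpr1a, a receptor gene for bone morphogenetic proteins, at 0.351 with 19 and 13 reads for WT and 644 and 284 for cTKO. All of these were near absent in WT and clearly detected in cTKO, and with 4 libraries such likeness describes mostly the difference between genotypes.

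The promoters of 9 of the 10 genes, all but Klf10, matched an entry in the RefSeq table. CACCC, read on both strands, was present in 6 of the 9 windows and in 57.5% of all 32851 windows. The GC box was present in 7 of 9, all but Klf12 and Klf9, and in 35.7% of all windows. The FOXO motif GTAAACA was present in Klf9 alone, and in 3.65% of all windows. The number of CpG dinucleotides ran from 6 in Klf12 and 16 in Klf7 to 40 in Klf4 and 42 in Klf11. Klf12 was the only window of the 9 below the median of all windows. Among the windows above the median only that of Klf13 belonged to a called gene, as Klf10 had no window. A motif match describes the sequence and is not a bound site.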

How the data were processed

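Splenic CD8 T cells of 2 WT and 2 cTKO mice were compared by RNA-seq of polyadenylated RNA with paired ends, per the labels. STAR, DESeq2 and the builds mm10 and GRCm38.p6 are named in the submitters' processing notes, and the sources used here give no annotation, counting tool or strand handling. The authors deposited a mean over all libraries, a signal in normalized read counts, per the file headers. Each log2 fold change with its standard error, the test score, and the raw and adjusted p-value were deposited by the authors, per the file headers. The genes and lists were chosen with earlier results of these data known.

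Whole reads per library were recovered from the mean, a sum of 4 whole numbers each times the worth of 1 read, and from the fold change, refitted by a negative binomial model and matched within 7e-10 on the log2 scale. Means of 12000 and more were not searched, and the reads were tested on simulated data. The WT size factors were 1.21 and 0.866, and those of cTKO 1.21 and 0.805. By its Xist reads, the larger library of each genotype was taken as the female in a limma fit with sex as a block. Normalized reads are reads over the size factor, and levels per kilobase use GENCODE M21 exon unions. Limma 3.58.1 with voom weights in R 4.3.3 was fitted to genes with a mean of at least 10, over 11577 genes, also leaving out each library; a lone library is then assumed to vary like the others. Other alternatives were no filter, a threshold of 0.01, re-centring and other scalings, and those for the limma scalings, the sex block and the limma list counts were chosen after seeing the data. Named were all 10 genes, tested relatives, called genes of each list with the 2 uncalled genes of highest mean, called or nearest neighbours and the 3 genes most like Klf12; called genes within 1 Mb were added after their values were seen. Adjusted p-values are Benjamini-Hochberg over all genes tested. With 2 animals a group they rest on these animals only, and they do not measure the spread of each gene by itself. The larger library was 1.02 times the smaller for Klf3 in both genotypes. For Klf2 it was 0.641 times in WT and 1.02 times in cTKO. Their standard errors in the authors' deposited table were nonetheless close, at 0.28 for Klf3 and 0.32 for Klf2. Neither CD4 T cells nor B cells were analysed here, and some genes of the trafficking list are not reported here.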

Additional observations from a re-analysis of the deposited data

How the results depend on the processing

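Of the 10 Kruppel-like factors, 2 were called higher and 1 lower. The count of genes called higher was 2 without the filter on the mean, at an adjusted p under 0.01, by limma on all 4 libraries and under both other scalings, 3 after re-centring (Klf11 added), and ran from 1 to 3 when limma left out each library in turn. The count called lower was 1 without the filter, 0 at an adjusted p under 0.01, 0 after re-centring, 0 by limma on all libraries, 0 when limma used recovered totals or the upper quartile, and ran from 0 to 2 when limma left out each library. With sex as a block limma called 3 higher (Klf9 added) and 1 lower. Klf12 was called in 11 of 11 tested alternatives, Klf10 in 9 of 11 and Klf13 in 3 of 11. Klf6 ran from -0.37 to 0.02 by limma and from -0.36 to 0.03 as a ratio of mean normalized reads, positive only without the larger WT library; the cause was not tested. Of 102 tested values of single genes under an alternative, 86 kept direction and side of the threshold, 10 lost a call, 5 gained one and 1 turned; of 50 ratios with no test, 47 stayed within 1 standard error, 2 moved further and 1 turned. Over genes whose mean was at least 100, the median fold change (log2) moved from -0.10 to -0.02 with recovered totals and -0.01 with the upper quartile. Among the lists, re-centring left 1 trafficking gene lower, as did limma on all libraries and without the larger cTKO library, in both of which Ccr7 was not fitted. By limma on all libraries and without the larger cTKO library, the count called higher was 0 for the other Kruppel-like factors, 0 for the Sp genes, 0 for the cofactors, and 1 for the promoter targets, where Ccl5 was not fitted; without that library 2 glucocorticoid-response genes were lower. No paired analysis was possible because the labels give the WT and cTKO animals no shared number; the sex block uses 1 female and 1 male per genotype, which are different animals. Depth limits Klf4, Klf9 and Klf12 in WT, with at most 46 reads in a library.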
